A study of Mus musculus with 2 samples.

Results

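Genes of ribosome biogenesis were compared in mouse haematopoietic stem and progenitor cells that carried either of 2 forms of PML/RARa, the fusion protein of acute promyelocytic leukaemia. The genes were taken by symbol: RNA polymerase I (Polr1a to Polr1e), the numbered Nop, Rrp, Utp and Nol families, Wdr12, Wdr43, Wdr74 and Wdr75, and 12 genes named singly (Ncl, Npm1, Fbl, Dkc1, Bop1, Pes1, Nolc1, Gnl3, Mybbp1a, Srm, Odc1 and Cad). This gave 55 of the 34745 gene models in the files, on 18 chromosomes. The rule itself reads only symbols, but it was written with earlier results of these data known. A model is called detected here if its level averaged 1 CPM or more over both libraries, where CPM is counts scaled to library size in parts per 1e6. Of the 55 genes 54 were detected, and Nol4 had 0 counts in each library.

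The 2KR cells carried PML/RARa (2KR), which the title of the series ties to 2 lysines of the fusion, and the WT cells carried PML/RARa (WT). The labels give everything else as shared. Marrow came from the femurs of C57BL/6 mice given 5-fluorouracil, and progenitors were enriched with a kit. They were infected with lentivirus (6 µg/ml polybrene, spun for 40 min at 1800 rpm) and kept for 24 h before the medium was renewed. The myeloid medium held SCF (50 ng/ml), IL-3 and IL-6 (10 ng/ml each) and hydrocortisone, and transduced cells were sorted for RNA. Each form had 1 library, with 20462011 counts in 2KR and 17606168 in WT. The labels state neither the age and number of the mice nor any pooling nor the promoter of the transgene, and cells with the pMSCV vector were not analysed here.

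Ribosomes are built in the nucleolus. RNA polymerase I makes the long precursor of the ribosomal RNAs, small nucleolar ribonucleoproteins (snoRNPs) guide its methylation and pseudouridylation, and large assemblies of factors fold and cut it into the small (40S) and the large (60S) subunit. Transcription of these genes follows cell growth, and many are textbook targets of MYC, which binds DNA with MAX at the E-box. Inherited DKC1 mutations cause dyskeratosis congenita with marrow failure, and NPM1 is among the genes most often mutated in human acute myeloid leukaemia.

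The comparison asks how these genes differ between progenitors with the mutant and with the wild-type fusion. With 1 library per form no difference has a replicate check, so no test was run and no p-value is given. Ratios are of CPM, 2KR over WT, each with an exact Clopper-Pearson 95% interval from the 2 counts. The intervals cover counting error only, and PCR copies of a fragment are not independent molecules. In bulk libraries a different share of a cell type and a different amount of RNA per cell cannot be told apart.

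Most ribosome biogenesis genes were slightly higher in 2KR. Of the 54, 46 (85.2%) had the higher level in 2KR, beside 52.3% of all 12466 detected models. The median log2 ratio of CPM + 1 was 0.21, with quartiles of 0.08 and 0.36, beside a median of 0.02 and quartiles of -0.21 and 0.23 over all detected models. At a fold of 1.3 or more on that scale, 13 genes (24.1%) were higher in 2KR, beside 13.7% of all. They were Nop56, Nop58, Nolc1, Fbl, Rrp9, Gnl3, Nop16, Rrp15, Nop2, Wdr12, Npm1, Srm and Polr1b. In the other direction 2 genes were lower by that fold, Utp23 and Nol3 (3.7%), beside 15.6% of all. Of the 54, 13 overlap another model with 10 or more counts, and since the strand setting of the counting is unknown, their ratios are less certain. Those not named as overlapping further on are Polr1e, Dkc1, Mybbp1a, Rrp7a, Nol7, Rrp8 and Nol3.

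Differences were small in size. None of the 54 was higher by 2-fold or more, beside 2.66% of all detected models, and 1 gene, Utp23, was lower by 2-fold or more, beside 4.56% of all. The counting interval lay above 1 for 37 genes (68.5%), beside 31.6% of all, and below 1 for 5 genes (9.26%), beside 28.5% of all. These 5 were Utp23, Nol3, Rrp36, Utp14b and Cad. Intervals narrow with more counts, so these shares are not like for like. The 54 genes had a median of 60.3 CPM in 2KR and 50.4 in WT, beside 33.1 and 32.8 over all detected models. The levels of the 55 summed to 5548 CPM in 2KR and 4550 CPM in WT, a ratio of 1.22 (1.21 to 1.23). Ncl and Npm1 held 34.6% of these counts in 2KR and 32.0% in WT, and without them the summed ratio was 1.17 (1.16 to 1.19).

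**Figure D1:**
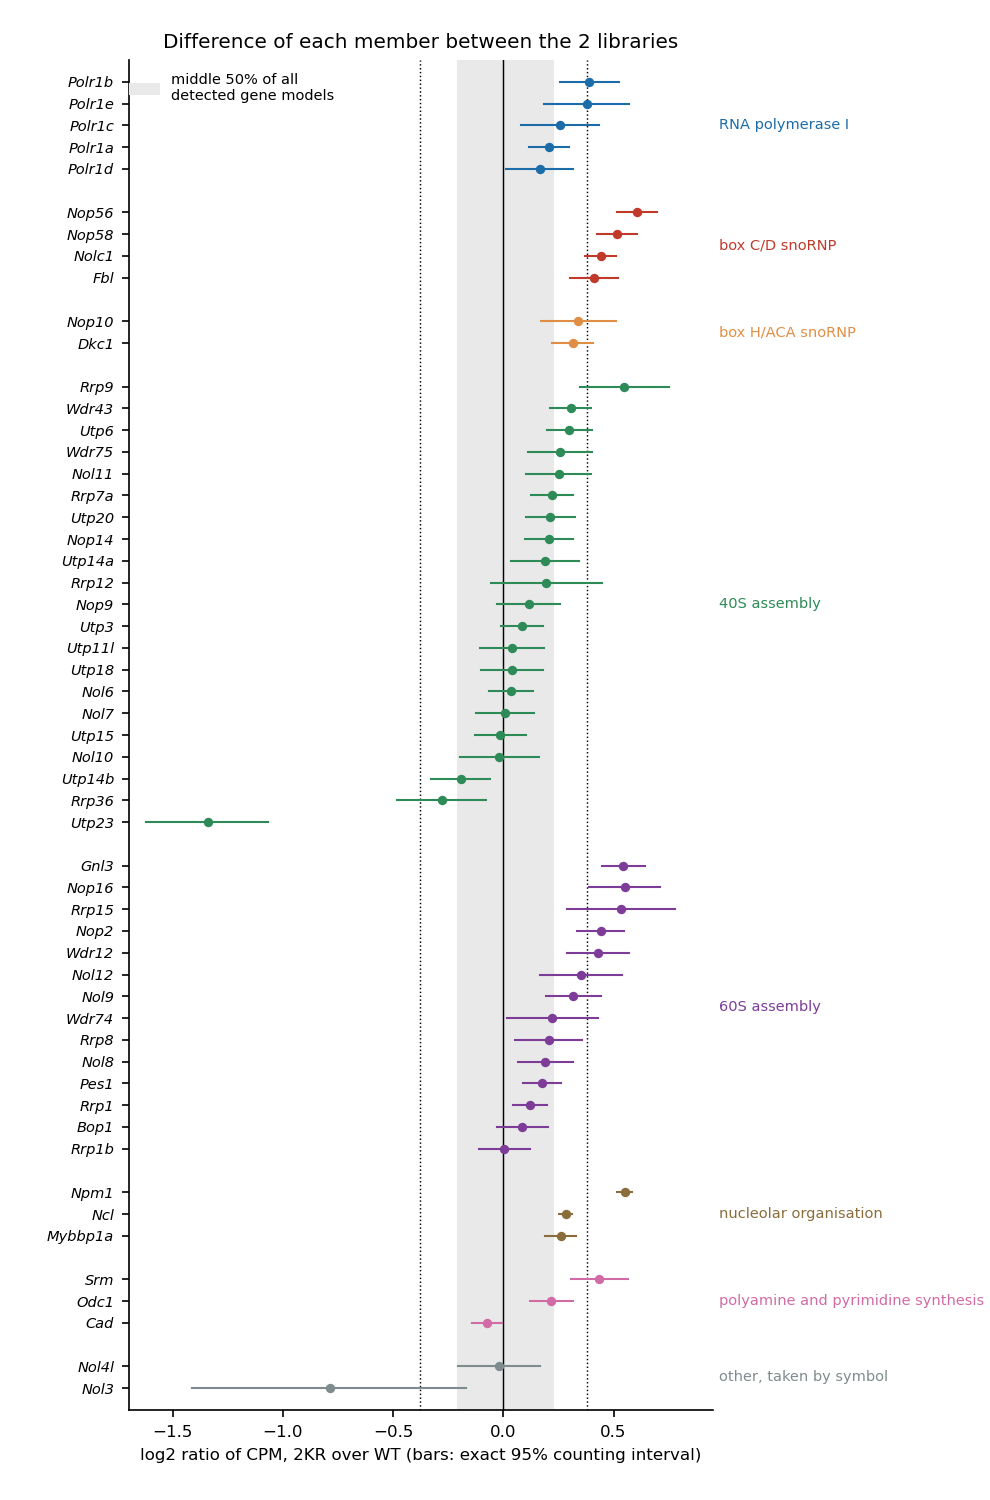
Log2 ratio of CPM, 2KR over WT, of the 54 detected ribosome biogenesis genes (points) by role, with the exact 95% counting interval (bars); dotted lines mark 1.3-fold, and the grey band holds the middle 50% of all detected models on the CPM + 1 scale (-0.21 to 0.23). All 4 genes of the box C/D group lie right of the upper dotted line, and Utp23 lies furthest to the left.

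Promoters were searched for the E-box, CACGTG, whose letters read the same on both strands. The RefSeq promoter table (GRCm38.p6, 250 bases before to 50 after a start site) held 44 of the 55 genes. The 11 others are Bop1, Fbl, Nol3, Nol4, Nol6, Npm1, Rrp12, Srm, Utp11l, Utp23 and Utp6. An E-box stood in a promoter of 9 of the 44 (20.5%), beside 11.9% of the 9213 genes that are detected and in the table and 8.09% of all 27025 genes in it. The 9 were Nop2, Wdr43, Nol11, Mybbp1a, Rrp7a, Utp20, Pes1, Utp18 and Utp14b, with ratios from 0.874 for Utp14b to 1.36 for Nop2. Of the 13 genes higher by 1.3-fold or more, 10 are in the table (Fbl, Npm1 and Srm are not), and 1 of the 10, Nop2, had an E-box in this window. The ETS core CCGGAA, searched on both strands, stood in 19 of the 44 (43.2%), beside 32.5% of the 9213, and the GC box GGGCGG, searched on both strands, in 34 (77.3%), beside 69.6%. Each motif was counted once per gene, and matches of different motifs may share bases.

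The 250 bases before the start site are printed for 4 genes. Nop2 has an E-box and a ratio of 1.36, Utp18 has an E-box and a ratio of 1.03, and Nop56 and Nop58, the genes with the largest ratios of the box C/D group, have none. They lie at chr6:125131633-125131882 on the plus strand (Nop2), chr11:93885767-93886016 on the minus strand (Utp18), chr2:130274162-130274411 on the plus strand (Nop56) and chr1:59684756-59685005 on the plus strand (Nop58). Each runs 5′ to 3′ along its gene, with the E-box in capitals.
Nop2: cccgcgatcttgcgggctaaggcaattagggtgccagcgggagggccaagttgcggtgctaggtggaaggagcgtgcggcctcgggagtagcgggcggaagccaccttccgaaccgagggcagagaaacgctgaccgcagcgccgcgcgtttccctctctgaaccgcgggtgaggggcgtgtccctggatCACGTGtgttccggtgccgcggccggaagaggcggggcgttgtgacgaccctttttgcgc
Utp18: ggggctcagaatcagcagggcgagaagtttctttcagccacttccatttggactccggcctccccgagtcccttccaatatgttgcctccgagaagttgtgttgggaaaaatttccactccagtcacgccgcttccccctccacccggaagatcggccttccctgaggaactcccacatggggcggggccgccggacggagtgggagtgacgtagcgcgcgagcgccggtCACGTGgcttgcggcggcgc
Nop56: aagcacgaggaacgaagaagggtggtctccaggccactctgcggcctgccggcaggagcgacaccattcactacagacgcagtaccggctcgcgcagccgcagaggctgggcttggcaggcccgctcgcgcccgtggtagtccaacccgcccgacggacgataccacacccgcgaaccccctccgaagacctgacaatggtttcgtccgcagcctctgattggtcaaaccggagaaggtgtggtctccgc
Nop58: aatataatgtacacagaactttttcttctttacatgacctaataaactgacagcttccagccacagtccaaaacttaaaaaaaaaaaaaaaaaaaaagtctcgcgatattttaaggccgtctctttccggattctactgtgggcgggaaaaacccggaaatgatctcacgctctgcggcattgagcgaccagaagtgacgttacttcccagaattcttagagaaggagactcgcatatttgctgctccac

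The E-box began at base -60 from the start site in Nop2 and at base -20 in Utp18. In the other 7 genes it began at base -208 (Rrp7a), -63 (Utp14b) and -43 (Nol11), or after the start site at base 3 (Pes1), 18 (Wdr43), 38 (Utp20) and 41 (Mybbp1a), with the start site as base 1. A match describes the letters in this window and not binding in these cells.

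All 5 subunits of RNA polymerase I taken by symbol were higher in 2KR, beside 52.3% of all detected models. All 5 counting intervals lay above 1, beside 31.6% of all. The median log2 ratio of the 5 subunits was 0.25. Polr1b (ENSMUSG00000027395, chromosome 2, 129100995 to 129126594, plus strand in GRCm38), the second largest subunit, had 56.1 CPM in 2KR and 42.8 in WT, a ratio of 1.31 (1.19 to 1.44). Polr1e, a subunit at the periphery of the enzyme, had 27.3 CPM in 2KR and 20.99 in WT, a ratio of 1.299 (1.14 to 1.49), just short of 1.3-fold. Polr1a (ENSMUSG00000049553, chromosome 6, 71909053 to 71984935, plus strand), the largest subunit, which carries the catalytic site together with Polr1b, had 113 CPM in 2KR and 98.1 in WT, a ratio of 1.15 (1.08 to 1.23). Polr1c and Polr1d form a platform shared with RNA polymerase III. Polr1c had 30.4 CPM in 2KR and 25.5 in WT, a ratio of 1.19 (1.06 to 1.35), and Polr1d had 39.2 CPM in 2KR and 35.004 in WT, a ratio of 1.12 (1.01 to 1.25). The 5 intervals overlap one another, and with 1 library per form the subunits have no firm order.

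Other genes of RNA polymerase I transcription lay on both sides of 1. Of 17 in a list of further subunits and factors of the ribosomal DNA, 9 were higher in 2KR and 8 lower. That is close to the 52.3% of all detected models that were higher, and the median log2 ratio was 0.03. Among the subunits there, Znrd1 had 21.3 CPM in 2KR and 25.9 in WT, 1.21-fold lower (1.06 to 1.39). Cd3eap and Twistnb had ratios of 1.09 (0.953 to 1.26) and 1.09 (0.954 to 1.24), so not every subunit of the enzyme was clearly higher. Taf1d, a subunit of the promoter selectivity factor SL1, had 109 CPM in 2KR and 75.04 in WT, a ratio of 1.45 (1.35 to 1.55). Taf1a, another subunit of SL1, had 12.04 CPM in 2KR and 16.7 in WT, 1.39-fold lower (1.17 to 1.65). Rrn3, which brings the polymerase to the promoter, had a ratio of 1.23 (1.14 to 1.33), and Ubtf, which coats active ribosomal DNA, 1.12 (1.07 to 1.17). Among 22 genes of RNA polymerase III the median was 0.09, and among 8 of RNA polymerase II it was 0.05, with none of those 8 at 1.3-fold in either direction.

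The box C/D snoRNP genes taken by symbol, whose particles methylate the ribose of ribosomal RNA, were the role group furthest above 1. This group held the core proteins Nop56, Nop58 and Fbl and also Nolc1, which is a chaperone and not a core protein. All 4 were higher in 2KR by 1.3-fold or more, beside 13.7% of all detected models. Their median log2 ratio was 0.47, and the summed ratio was 1.41 (1.36 to 1.45). Nop56 (ENSMUSG00000027405, chromosome 2, 130274430 to 130279313, plus strand), a scaffold of the particle, had 134 CPM in 2KR and 88.5 in WT, a ratio of 1.52 (1.43 to 1.62), the largest of the 54. Nop58 (ENSMUSG00000026020, chromosome 1, 59684971 to 59719044, plus strand), its partner in the scaffold, had 131 CPM in 2KR and 91.3 in WT, a ratio of 1.43 (1.34 to 1.52). Fbl (ENSMUSG00000046865, chromosome 7, 28169748 to 28179269, plus strand), the methyltransferase fibrillarin, had 85.9 CPM in 2KR and 64.7 in WT, a ratio of 1.33 (1.23 to 1.43). Nolc1, a chaperone of snoRNPs that moves between Cajal bodies and the nucleolus, had 200.05 CPM in 2KR and 147 in WT, a ratio of 1.36 (1.29 to 1.43). Nhp2l1, the remaining core protein of the particle, is not matched by the symbol rule and was closer to 1, with 59.8 CPM in 2KR and 54.7 in WT, a ratio of 1.09 (1.003 to 1.19). The end of Nop56 overlaps that of Idh3b on the other strand, whose ratio was 1.05 (0.986 to 1.13).

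Both box H/ACA snoRNP genes taken by symbol, whose particles make pseudouridine, were higher in 2KR but short of 1.3-fold. Dkc1 (ENSMUSG00000031403, chromosome X, 75095854 to 75109777, plus strand), the pseudouridine synthase dyskerin, had 117 CPM in 2KR and 94.4 in WT, a ratio of 1.24 (1.17 to 1.32). Nop10, a small protein bound to dyskerin, had 34.5 CPM in 2KR and 27.2 in WT, a ratio of 1.27 (1.13 to 1.42). In a list of 12 other genes of snoRNPs and their assembly all 12 were higher, beside 52.3% of all detected models. Of the 12, 4 were higher by 1.3-fold or more, beside 13.7% of all, and the median log2 ratio was 0.33. There Ruvbl1 and Ruvbl2, ATPases that take part in snoRNP assembly, had ratios of 1.35 (1.23 to 1.49) and 1.34 (1.25 to 1.44), and Nufip1, an assembly factor, 1.08 (0.938 to 1.23).

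**Figure D2:**
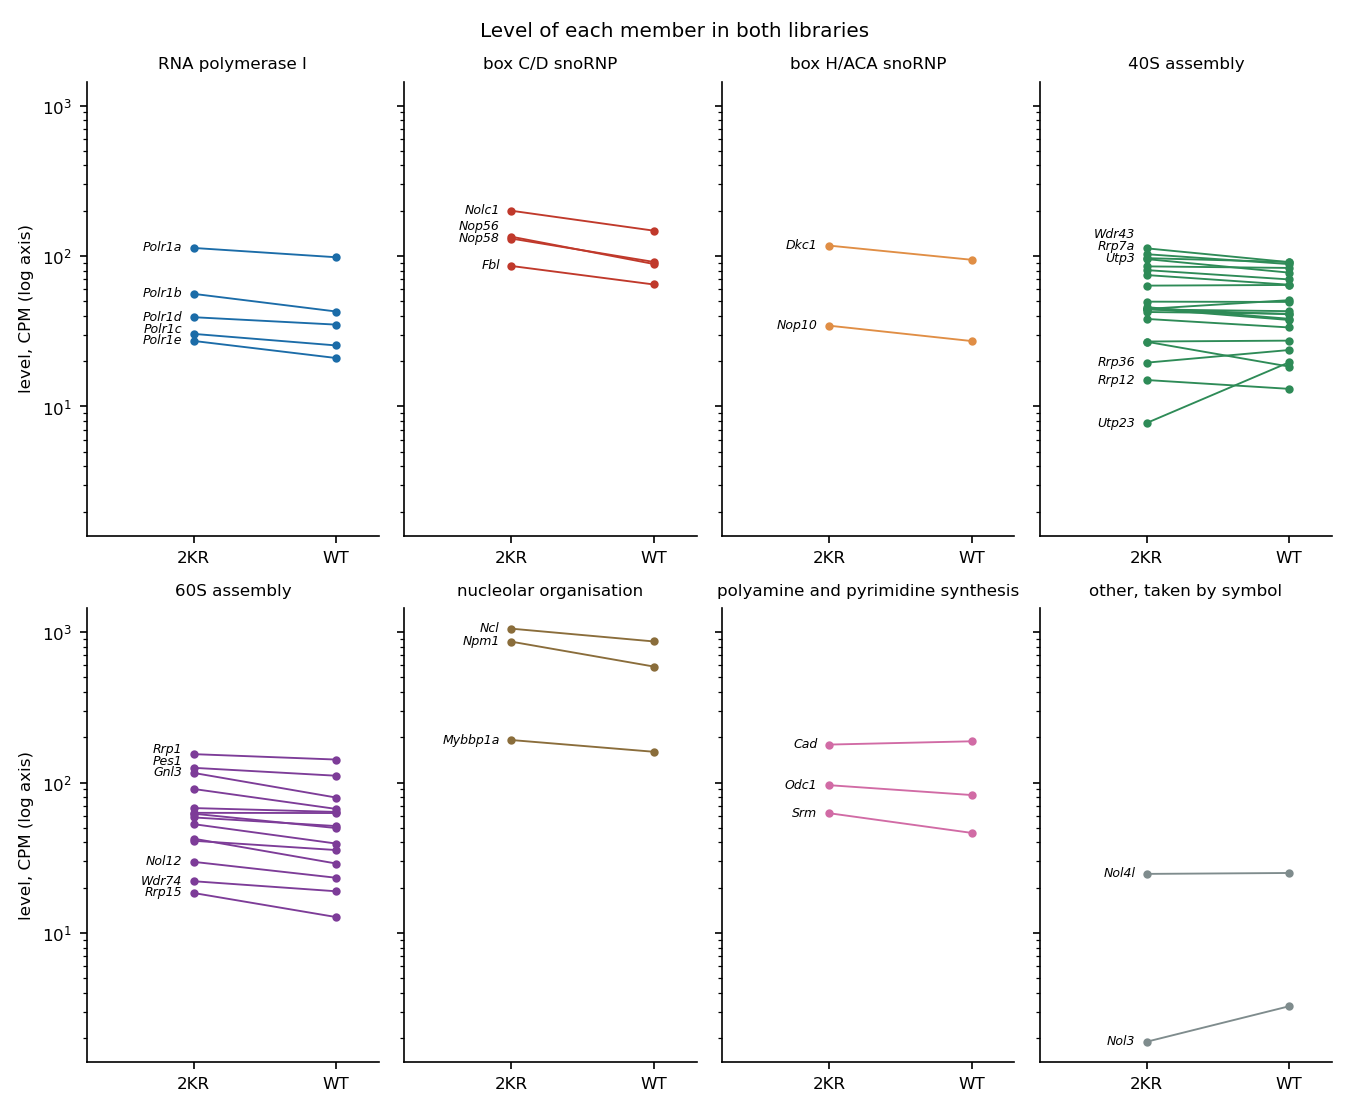
CPM (log axis) of each of the 54 detected genes in the 2KR (left) and the WT library (right), joined by a line, with a panel per role. Lines fall towards WT for all 4 genes of the box C/D group, while Utp23 in the 40S panel climbs, with 7.77 CPM in 2KR and 19.7 in WT.

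Genes of 40S assembly were split. Of 21, 16 were higher in 2KR and 5 lower (Nol7, Utp15 and Nol10, all near 1, change side with the scaling). Over all detected models 52.3% were higher, and the median log2 ratio of the 21 was 0.11. On each side 1 of the 21 lay past 1.3-fold, beside 13.7% of all higher and 15.6% lower. Rrp9 (ENSMUSG00000041506, chromosome 9, 106475963 to 106485424, plus strand), which binds the U3 snoRNA, was the higher one, with 26.9 CPM in 2KR and 18.4 in WT, a ratio of 1.46 (1.27 to 1.68). Its model overlaps that of Parp3.

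Within the small subunit processome, which forms on the nascent precursor, genes of the UTP-A and of the UTP-B module did not share 1 ratio. In the UTP-A module, Wdr43 had 112 CPM in 2KR and 91.1 in WT, a ratio of 1.24 (1.16 to 1.32). Wdr75 and Nol11 had ratios of 1.19 (1.08 to 1.32) and 1.19 (1.08 to 1.32), while Utp15 had 63.6 CPM in 2KR and 64.2 in WT, a ratio of 0.9898 (0.913 to 1.07). The intervals of Wdr43 and Utp15 do not overlap. In the UTP-B module, Utp6 had 95.4 CPM in 2KR and 77.6 in WT, a ratio of 1.23 (1.15 to 1.32), and Utp18 had 44.2 CPM in 2KR and 43.01 in WT, a ratio of 1.03 (0.931 to 1.13), and these intervals do not overlap either. In the UTP-C module, Rrp7a had a ratio of 1.16 (1.09 to 1.24) and Nol6 of 1.02 (0.955 to 1.099), with overlapping intervals. The other intervals above 1 were those of Utp20, at 1.16 (1.07 to 1.25), Nop14, at 1.15 (1.07 to 1.24), and Utp14a, at 1.14 (1.02 to 1.27). The intervals of Rrp12, Nop9, Utp3, Utp11l, Nol7 and Nol10 held 1, with ratios from 0.987 for Nol10 to 1.14 for Rrp12, and Rrp12 had few counts (309 in 2KR and 229 in WT).

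The 3 genes of this group with an interval below 1 were Utp14b, Rrp36 and Utp23. Utp14b, a retrocopy of Utp14a, had 44.5 CPM in 2KR and 50.9 in WT, 1.14-fold lower (1.04 to 1.26). It lies inside Acsl3 on the same strand, which was 1.102-fold lower in 2KR, and how shared reads were assigned is unknown. Rrp36, needed for early cleavage of the precursor, had 19.6 CPM in 2KR and 23.7 in WT, 1.21-fold lower (1.06 to 1.395). Utp23 (ENSMUSG00000022313, chromosome 15, 51877429 to 51884614, plus strand) was the gene furthest from 1 among the 54. In yeast it takes part in the release of the snR30 snoRNA from precursors of the small subunit. It had 160 counts in 2KR and 344 in WT, which are 7.77 and 19.7 CPM, 2.53-fold lower (2.09 to 3.08). No other model with 10 or more counts overlaps it, and Eif3h, its neighbour, was 1.06-fold lower.

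Of 30 other detected genes of 40S assembly, 24 were higher and 6 lower, where 52.3% of all detected models were higher. None of the 30 was higher by 1.3-fold or more, beside 13.7% of all, and the median log2 ratio was 0.08. Ddx21, a nucleolar RNA helicase, had 236 CPM in 2KR and 187 in WT, a ratio of 1.26 (1.21 to 1.32). Tsr1 and Wdr3 had ratios of 1.27 (1.14 to 1.402) and 1.26 (1.15 to 1.38). Heatr1, a large protein of the UTP-A module, was the 1 gene past 1.3-fold, with 236 CPM in 2KR and 395 in WT, 1.67-fold lower (1.61 to 1.74).

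All 14 genes of 60S assembly were higher in 2KR, beside 52.3% of all detected models. Of the 14, 5 were higher by 1.3-fold or more, beside 13.7% of all, and the median log2 ratio was 0.26. Rrp1b, the closest to 1, turned lower with DESeq2 size factors (log2 ratio -0.0018) and when centred on the median of all models (-0.013), which leaves 13 of 14. Gnl3 (ENSMUSG00000042354, chromosome 14, 31012434 to 31019089, minus strand), the GTP-binding protein nucleostemin, had 116 CPM in 2KR and 79.4 in WT, a ratio of 1.46 (1.36 to 1.56), and its model overlaps that of Glt8d1. Nop16 had 42.4 CPM in 2KR and 28.9 in WT, a ratio of 1.46 (1.31 to 1.64). Rrp15, found in early precursors of the subunit, had 18.4 CPM in 2KR and 12.8 in WT, a ratio of 1.45 (1.22 to 1.71). Nop2 (ENSMUSG00000038279, chromosome 6, 125131909 to 125144753, plus strand), a methyltransferase of the large ribosomal RNA whose promoter is printed above, had 90.6 CPM in 2KR and 66.7 in WT, a ratio of 1.36 (1.26 to 1.46).

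The PeBoW complex of Pes1, Bop1 and Wdr12, needed to mature the large ribosomal RNA, did not have 1 common ratio. Wdr12 had 52.9 CPM in 2KR and 39.3 in WT, a ratio of 1.35 (1.22 to 1.48). Pes1 had 125 CPM in 2KR and 111 in WT, a ratio of 1.13 (1.06 to 1.198), and Bop1 had 67.7 CPM in 2KR and 63.8 in WT, a ratio of 1.06 (0.9798 to 1.15). The interval of Wdr12 overlaps neither of the others. The model of Wdr12 overlaps Carf, and that of Bop1 overlaps Mroh1, which was 1.56-fold lower in 2KR. Nol9, a kinase that acts on the precursor, had a ratio of 1.25 (1.14 to 1.36), and Nol12 of 1.28 (1.12 to 1.45). Wdr74, Rrp8 (a methyltransferase) and Nol8 had ratios of 1.17 (1.01 to 1.35), 1.15 (1.04 to 1.28) and 1.14 (1.05 to 1.25). Of the paralogs Rrp1 and Rrp1b, Rrp1 had 154 CPM in 2KR and 142 in WT, a ratio of 1.09 (1.03 to 1.15), and Rrp1b had 62.9 CPM in 2KR and 62.7 in WT, a ratio of 1.003 (0.925 to 1.09).

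Of 36 other genes of 60S assembly 32 were higher and 4 lower, where 52.3% of all detected models were higher. By 1.3-fold or more 5 of the 36 were higher, a share close to the 13.7% of all. In the other direction 1 was lower by that fold, beside 15.6% of all. The median log2 ratio was 0.16. Ppan had 84.98 CPM in 2KR and 53.8 in WT, a ratio of 1.58 (1.46 to 1.71), and Noc2l had 1.39 (1.33 to 1.46). Gnl3l, a relative of Gnl3, had 64.4 CPM in 2KR and 92.4 in WT, 1.44-fold lower (1.33 to 1.55). The exosome, which trims the precursor, had a median of 0.18 over 13 genes, from Exosc7 at a ratio of 1.73 (1.53 to 1.96) to Exosc3, 1.63-fold lower (1.44 to 1.83). Of these 13, 5 were higher by 1.3-fold or more, beside 13.7% of all, and 1 was lower, beside 15.6%. RNase P and MRP had a median of 0.20 over 11 genes, and Rpp25, the 1 gene there past 2-fold, had few counts (50 in 2KR and 8 in WT).

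**Figure D3:**
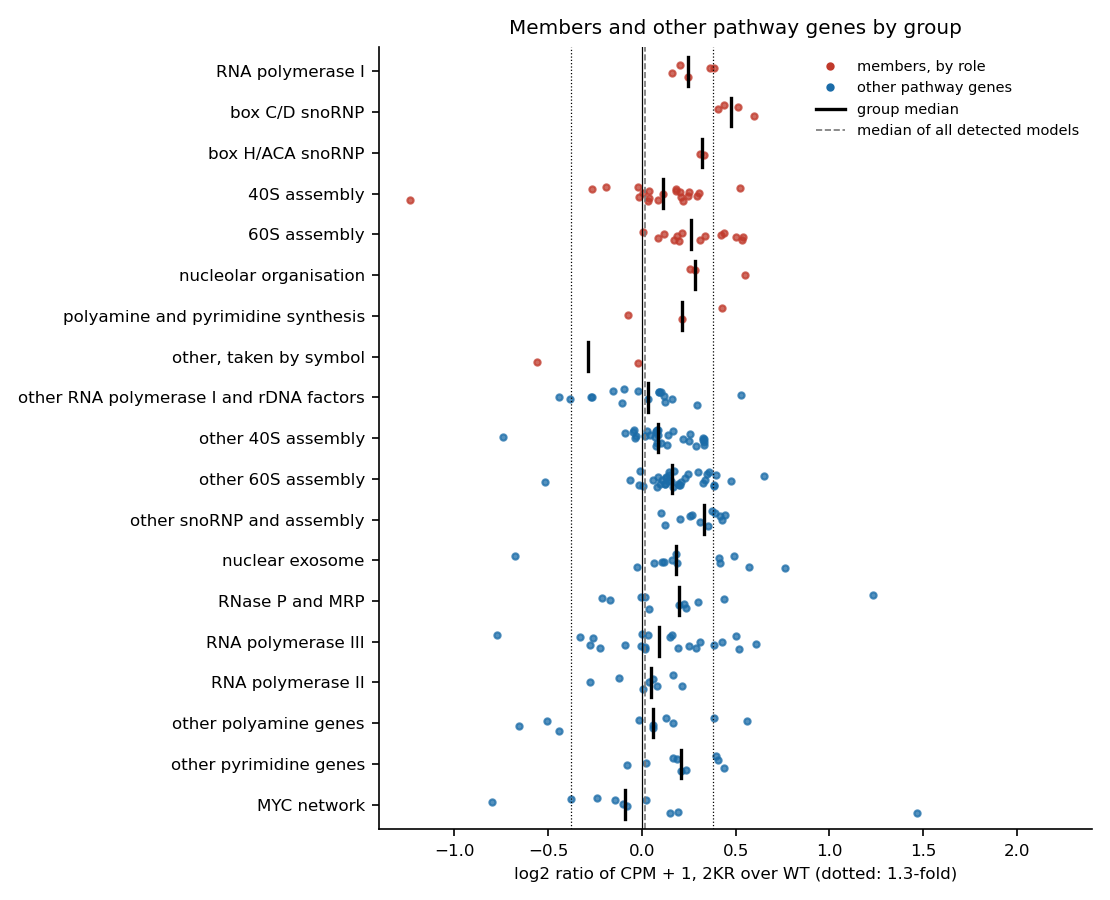
Log2 ratio of CPM + 1, 2KR over WT, of each detected gene (points) in 8 role groups (red) and 11 lists of other pathway genes (blue), with group medians (black bars) and the median of all detected models (dashed line). Medians of the role groups run from -0.29 (taken by symbol alone) to 0.47 (box C/D), and those of the other lists from -0.09 (MYC network) to 0.33 (other snoRNP genes).

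The 3 genes of nucleolar organisation were higher in 2KR. Npm1 (ENSMUSG00000057113, chromosome 11, 33152287 to 33163206, minus strand), the nucleolar chaperone nucleophosmin, had 17796 counts in 2KR and 10311 in WT, which are 864 and 589.7 CPM, a ratio of 1.46 (1.43 to 1.501). Ncl (ENSMUSG00000026234, chromosome 1, 86344719 to 86359400, minus strand), the RNA-binding protein nucleolin, had 1054 CPM in 2KR and 866 in WT, a ratio of 1.22 (1.19 to 1.24). The intervals of Npm1 and Ncl do not overlap. Npm1 has processed copies in the genome, and reads shared with them could be split. Mybbp1a, a nucleolar protein that binds MYB, had 192 CPM in 2KR and 160.1 in WT, a ratio of 1.197 (1.14 to 1.26).

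Growth metabolism was mixed. Srm, spermidine synthase, had 62.6 CPM in 2KR and 46.3 in WT, a ratio of 1.35 (1.24 to 1.48). Odc1, ornithine decarboxylase, the rate-limiting enzyme of polyamine synthesis, had 96.04 CPM in 2KR and 82.6 in WT, a ratio of 1.16 (1.09 to 1.25). Cad, which carries out the opening steps of pyrimidine synthesis, had 179 CPM in 2KR and 188 in WT, 1.05-fold lower (1.003 to 1.102). Of 10 other polyamine genes 6 were higher and 4 lower, among them Sms, spermine synthase, at a ratio of 1.504 (1.29 to 1.76), and Sat1, which acetylates polyamines, 1.599-fold lower (1.43 to 1.79). Of 9 other pyrimidine genes 8 were higher, where 52.3% of all detected models were higher. Among these 8, Umps, which makes uridine monophosphate, had a ratio of 1.34 (1.19 to 1.499).

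The symbols also took 3 genes that are not known as ribosome assembly factors. Nol3, an inhibitor of apoptosis, had 39 counts in 2KR and 57 in WT, 1.72-fold lower (1.13 to 2.66), and Nol4l had a ratio of 0.986 (0.866 to 1.12). Nol4, at 0 counts, is below a floor of 3 counts, which is 0.146 CPM in 2KR and 0.172 CPM in WT. The files also list 3 ribosome biogenesis genes by older symbols that the pattern misses. Diexf (Utp25) had a ratio of 1.23 (1.098 to 1.37), Cirh1a (Utp4) 1.05 (0.961 to 1.15) and Gltscr2 (Nop53) 1.01 (0.967 to 1.05).

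**Figure D4:**
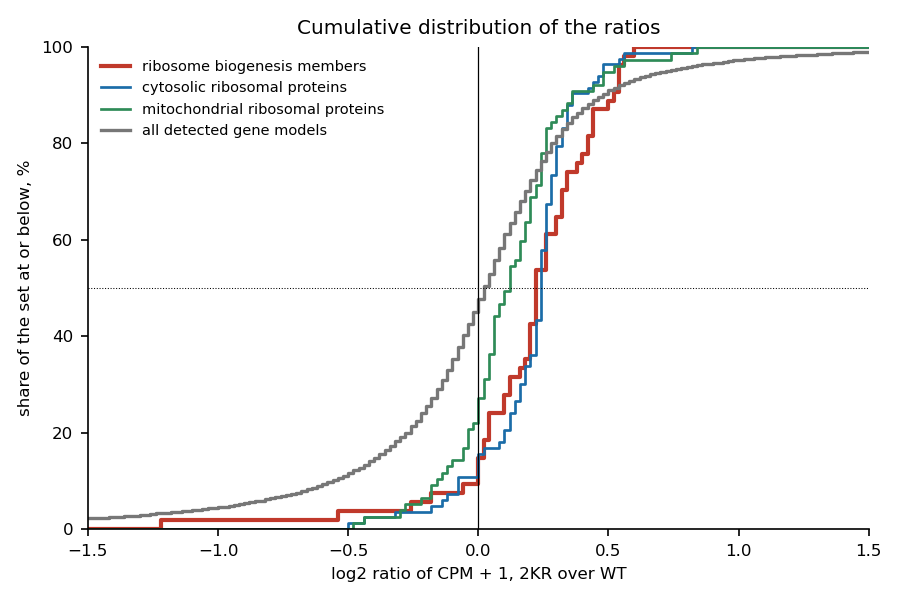
Share of each set (percent) with a log2 ratio of CPM + 1, 2KR over WT, at or below the value on the horizontal axis. The median of the 54 ribosome biogenesis genes is 0.21, that of 83 cytosolic ribosomal protein genes 0.23, that of 77 mitochondrial ones 0.10 and that of all detected models 0.02.

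Ribosomal protein genes were set beside these genes, the cytosolic ones as the cargo of this pathway. Of 83 detected cytosolic ones 70 were higher in 2KR, beside 52.3% of all detected models. By 1.3-fold or more 8 were higher (a smaller share than the 13.7% of all), and the median log2 ratio was 0.23. Of 77 mitochondrial ones 56 were higher, 7 of them by that fold (also a smaller share than 13.7%), with a median of 0.10. In the MYC network 4 of 10 detected genes were higher and 6 lower. Mycn had 380.0 CPM in 2KR and 137 in WT, a ratio of 2.77 (2.65 to 2.91). Myc had 174 CPM in 2KR and 157 in WT, a ratio of 1.11 (1.06 to 1.17). Mxd1, which competes with MYC for MAX, had 309 CPM in 2KR and 539 in WT, 1.75-fold lower (1.69 to 1.802). Mxi1 was 1.31-fold lower (1.18 to 1.45). Mxd4 went the other way from Mxd1, with 318 CPM in 2KR and 278 in WT, a ratio of 1.14 (1.101 to 1.19).

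Markers of proliferation and of other cell types also differed between the libraries. All 7 proliferation genes were higher in 2KR, beside 52.3% of all detected models, and none by 1.3-fold, beside 13.7% of all. They summed to 3296 CPM in 2KR and 2826 CPM in WT. Of 5 progenitor markers, all detected, Cd34, Flt3 and Myb were higher and Kit and Meis1 lower (2801 CPM in sum in 2KR and 2473 in WT). Kit, at 1158 CPM in 2KR and 1359 in WT, counts both here and among the mast cell and basophil markers. Of 8 mast cell and basophil markers 7 were detected, 1 higher and 6 lower (4953 CPM in sum in 2KR and 8455 in WT), with Fcer1a at 0 counts. The mast cell and basophil markers summed to more than the progenitor markers in both libraries. Of 7 granulocyte markers 3 were detected, 2 higher and 1 lower (525 CPM in 2KR and 230.5 in WT), with Camp at 0. Of 6 monocyte and macrophage markers 5 were detected, 2 higher and 3 lower (114 CPM in 2KR and 255 in WT). Of 3 megakaryocyte markers 2 were detected, 1 higher and 1 lower (1265 CPM in 2KR and 989 in WT). Of 4 lymphoid markers only Il7r was detected (1.07 CPM in 2KR and 31.3 in WT), with Cd3e at 0. The part of these markers in the ratios of the ribosome biogenesis genes was not tested.

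Levels between genes depend on the gene length used. The length behind the deposited FPKM (counts per kilobase of the gene model in parts per 1e6) was over 1.5 times the length of the principal transcript in GENCODE M21 for 26 of the 54 genes, with a range of 0.903 to 8.54 times. For Nop56 it was 15263 bases, though the gene spans 4884. In deposited FPKM, Npm1 had 216 in 2KR and 146 in WT, Ncl 87.5 and 70.95, Rrp1 77.4 and 70.3, and Fbl 74.6 and 55.4. Nop56 lay far below, with 8.87 FPKM in 2KR and 5.76 in WT, as did Nop58, with 8.996 and 6.203.

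Per kilobase of the principal transcript, Nop58, Fbl and Nop56 lay close together. On that scale Nop58 had 76.3 CPM in 2KR and 53.3 in WT, Fbl 71.8 and 54.04, and Nop56 71.6 and 47.1. Above them were Npm1, with 529 CPM per kilobase in 2KR and 361 in WT, Ncl, with 128 and 106, and Rrp1, with 77.8 and 71.6. The lowest detected genes in 2KR were Nol3, Utp23 and Rrp12, with 0.596, 2.66 and 3.46 CPM per kilobase in 2KR and 1.03, 6.74 and 3.02 in WT. The CPM ratios between libraries do not use the length.

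**Figure D5:**
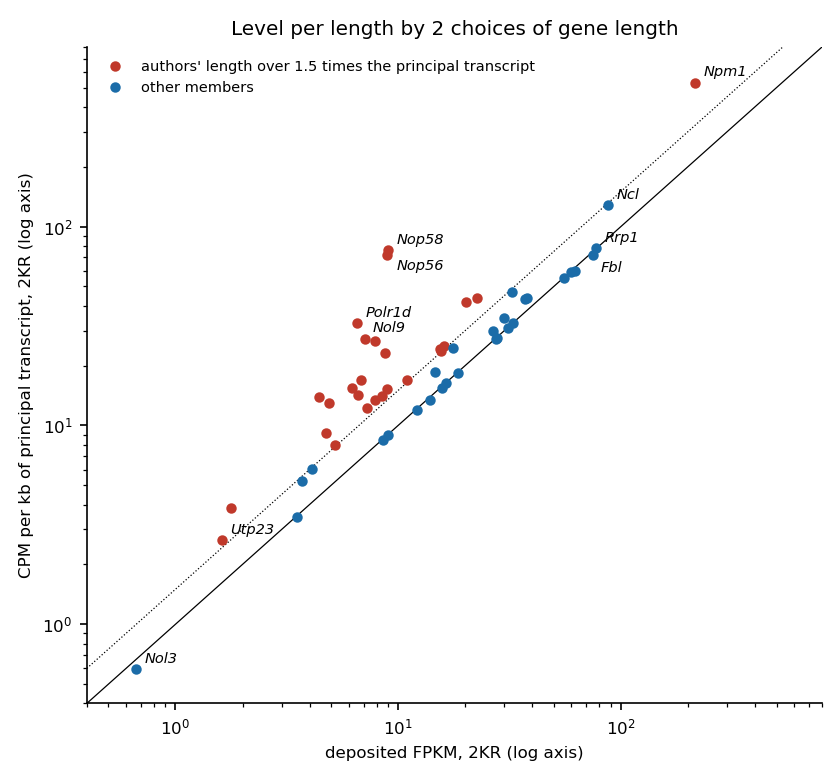
Level per length of the 54 detected genes in 2KR as deposited FPKM (horizontal, log axis) and as CPM per kilobase of the principal transcript (vertical, log axis), with equality (solid line) and 1.5 times it (dotted line). Nop56 and Nop58 stand far above the line, with 8.87 and 8.996 FPKM beside 71.6 and 76.3 CPM per kilobase.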

How the data were processed

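RNA was sequenced from 1 library of 2KR and 1 of WT cells. Reads were aligned with HISAT2 2.0.4 to GRCm38, per the submitters' processing notes. The deposited files give whole-number counts per gene model, and the counter, annotation release and strand setting are unknown here. They also give the authors' FPKM, which equals the count over the total and 1 fixed length per model to within 0.1% in 15403 of 15403 models with counts in both. Totals were 20462011 counts in 2KR and 17606168 in WT.

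From the counts, CPM were computed with TMM scaling (edgeR 4.0.16, R 4.3.3). Folds were called on CPM + 1 among models averaging at least 1 CPM. Intervals are exact Clopper-Pearson 95% (scipy 1.17.1). They were tried on simulated counts with counting error alone, the error they assume, so that trial says nothing of spread between libraries. Promoters came from RefSeq GRCm38.p6 and transcript lengths from GENCODE M21. The alternatives included DESeq2 1.42.0 size factors, other pseudocounts and filters, and gene sets. In each list of other pathway genes, those named have the 3 highest, the 2 lowest or the highest mean level. Znrd1, Cd3eap and Twistnb were named beside these as further subunits of RNA polymerase I, after their values were seen. Acsl3, Eif3h, Idh3b and Mroh1 were named as overlapping or neighbouring models after their values were seen. The genes and lists were chosen with earlier results of these data known. A further list of cell type markers is not reported here.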

Additional observations from a re-analysis of the deposited data

How the results depend on the processing

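No paired analysis was possible because each form has 1 library, and for the same reason no library could be left out. Under 11 alternative settings (1 of them, present gene symbols, chosen after seeing the data), the median log2 ratio of the ribosome biogenesis genes and the count of genes higher in 2KR kept their direction and moved little (medians from 0.196 to 0.237, and 44 to 48 of 54 genes where the set was unchanged). The count lower by 1.3-fold or more was 1 with a pseudocount of 5, among genes averaging 5 CPM or more, without genes that overlap another model, and with assembly and transcription roles only, and the count lower by 2-fold or more was 0 with a pseudocount of 5. The median of the genes taken by symbol alone was -0.14 with a pseudocount of 5, -0.019 among genes averaging 5 CPM or more and -0.019 without overlapping models. The median of nucleolar organisation was 0.42 without overlapping models. Filters and gene sets remove Nol3 or Mybbp1a by construction, and the pseudocount shrinks low genes. With another scaling the sign changed in Rrp1b, Nol7, Utp15 and Nol10, none with a log2 ratio over 0.02 in size. Level per length, an alternative chosen after seeing the data, moved by over 1.5 times in 26 of 54 genes with the principal transcript. Depth limits Nol3 most, then Utp23 and Rrp12, and a replicate would be needed to set any ratio against biological spread.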
